A study of Mus musculus with 16 samples.

Results

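On expression arrays of mouse embryonic stem cells (mESCs), 4 genes of DNA methyltransferases and their cofactor were read: Dnmt1, Dnmt3a, Dnmt3b and Dnmt3l. They are 4 of the 21154 genes that could be named on the array. Members were all non-control probes whose RefSeq accession belonged to 1 of these genes, and each probe was kept apart. There were 6 such probes of 55681, with 1 spot each per array: 1 for Dnmt1, 1 for Dnmt3a, 3 for Dnmt3b and 1 for Dnmt3l. All 6 passed the filter on dim probes, under which at least 1 group had to show the probe well above background on all of its arrays.

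Total RNA of 16 cultures was hybridised to 16 one-colour Agilent arrays in 6 groups of cell line and medium. J1 is a wild-type male line, and the other 2 lines derive from it. TKO mESCs lack functional Dnmt1, Dnmt3a and Dnmt3b. 3B3-3l mESCs are Dnmt3a and Dnmt3b knockout cells to which constitutively expressed exogenous Dnmt3b and Dnmt3l were added. Serum cultures had 15% FCS and 500 U/ml LIF. The 2i cultures were kept for 2 weeks in serum-free N2B27 medium with 1 uM PD0325901, a MEK inhibitor, 3 uM CHIR99021, a GSK3 inhibitor, and 1000 U/ml LIF. In serum there were 4 arrays of J1, 2 of TKO and 2 of 3B3-3l, and in 2i there were 3 of J1, 3 of TKO and 2 of 3B3-3l. The study grew J1 cells on inactivated feeder cells while they were in serum, whereas all other cultures were feeder-free. Serum concentration, LIF, inhibitors and (for J1) feeders therefore changed together between serum and 2i and cannot be told apart. Each mutant line stands for 1 genotype, and the sources used here do not say that its replicates were independent clones, so p-values measure the spread between these cultures.

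DNA methyltransferases add a methyl group to cytosine, mostly where it is followed by guanine (a CpG). Dnmt1 is the maintenance enzyme, which copies methylation onto the new strand after DNA replication. Dnmt3a and Dnmt3b methylate unmethylated sites (de novo activity), and Dnmt3l, which has no catalytic activity of its own, binds and stimulates them. mESCs in serum are known for high levels of the de novo enzymes and of Dnmt3l, whereas the ground state held by 2i is known for low genomic methylation.

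The Dnmt1 probe, A_51_P195573, is shown because it reads the maintenance enzyme that the TKO line lacks. Its 60 bases hold 2 CpG sites and 55% G or C, and no part is set in capitals.

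Dnmt1 probe A_51_P195573: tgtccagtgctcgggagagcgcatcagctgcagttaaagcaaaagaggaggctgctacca

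The study gives this sequence in its supplementary probe table. Sequences of the Dnmt3a, Dnmt3b and Dnmt3l probes are not shown here. None of the array files places the 6 probes within their transcripts. The genes themselves lie, in assembly GRCm38.p6, at chr9:20907206-20959888 (Dnmt1), chr12:3801559-3914443 (Dnmt3a), chr2:153649411-153687730 (Dnmt3b) and chr10:78042287-78063622 (Dnmt3l). Which exons the knockouts remove, and which part of the transcript the exogenous cDNAs carry, is not given in the sources used here. A probe outside the removed part checks nothing about a knockout, and this limit holds for each probe below.

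The promoter of Dnmt3b is shown because the 3 Dnmt3b probes moved together in J1 and apart in 3B3-3l, the line that carries an exogenous copy of the gene. The RefSeq promoter table (GRCm38.p6) gives 1 start site for the gene, which lies a little inside the span given above, and the reason is not given in the sources used here. Of the 250 bases before this start site, on the plus strand at chr2:153649199-153649448, the last 38 lie inside the span. The 212 bases ahead of it (chr2:153649199-153649410) are printed with their CpG sites in capitals.

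Dnmt3b promoter: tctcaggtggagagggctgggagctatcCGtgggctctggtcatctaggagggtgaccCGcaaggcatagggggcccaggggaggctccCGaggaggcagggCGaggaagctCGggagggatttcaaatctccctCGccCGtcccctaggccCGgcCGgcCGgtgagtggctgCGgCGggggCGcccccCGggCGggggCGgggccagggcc

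The printed stretch holds 16 CpG sites. The whole 250 bases hold 21, a number reached by 16.3% of the 32851 promoters of the same length, whose median is 6. Of the 3 start sites listed for Dnmt3a, 2 have 38 and 40 CpG sites before them, and the third has 15. The 3 listed for Dnmt3l have 3 to 5, below the median of all promoters. The 3 for Dnmt1 have 2, 7 and 26. These counts describe the reference sequence only, since neither methylation nor start site use was measured on the arrays.

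A level below is the log2 signal of a probe minus the 75th percentile over the non-control spots of its array, so that 0 is a bright probe and each unit is a 2-fold step. Because probes hybridise with different efficiency, a level is compared only with the same probe in another group. Between 39.7% and 49.0% of spots per array were well above background, and the 75th percentile lay between 1019 and 1797 intensity units. All 10 pluripotency markers of a fixed list (Pou5f1, Nanog, Sox2 and others) were well above background on every array. Arrays of the same group correlated at 0.976 to 0.990. The arrays lay on 3 slides, and the slide with the 4 arrays of 3B3-3l held only 1 other array, J1-serum replicate 1. That slide was scanned on day 2 and the others on day 1, so its slide and scan day cannot be told apart. With slide in the model, none of the 6 probes passed the test for a difference between slides (limma adjusted p 0.122 or higher). Over all probes, 562 of 26440 were called for that slide against the first, and 3 of 27077 for the second slide against the first. The term for the slide of 3B3-3l rests on J1-serum replicate 1, and for Dnmt3l it was 0.43.

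J1-serum also differed from the other groups in markers of other cells. All 13 measured fibroblast markers of the list (16 genes, Col1a1 among them) were well above background in J1-serum. Elsewhere in serum 10 were, in TKO and in 3B3-3l alike. In 2i the number per array was 7 to 10 in J1, 10 to 11 in TKO and 9 in 3B3-3l. Their summed level (linear, in units of the 75th percentile) was 79.1 to 94.7 in J1-serum, against 31.8 to 70.8 elsewhere. All 7 primitive endoderm markers (Gata4, Gata6, Sox17 and others) were well above background in J1-serum, with a summed level of 13.9 to 16.1, against 0.514 to 2.23 elsewhere. Of these 7, 4 to 6 per array were well above background in TKO-serum and 4 in 3B3-3l-serum. In 2i the number was 0 to 1 in J1, 0 to 2 in TKO and 1 to 2 in 3B3-3l. The summed level of the 4 neural markers went the other way in serum. It was 3.28 to 4.23 in J1-serum, 7.22 to 7.86 in TKO-serum and 7.76 to 8.10 in 3B3-3l-serum. Against J1 in serum, 2 of the 4 were called higher and 2 were not called, in TKO and in 3B3-3l alike. In 2i the summed level was 3.99 to 4.35 in J1, 5.98 to 6.83 in TKO and 4.54 to 4.65 in 3B3-3l. The part of feeder, neural or differentiated cells in these levels was not tested, and in RNA from whole cultures fewer cells of a type and less RNA per cell cannot be told apart.

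**Figure D1:**
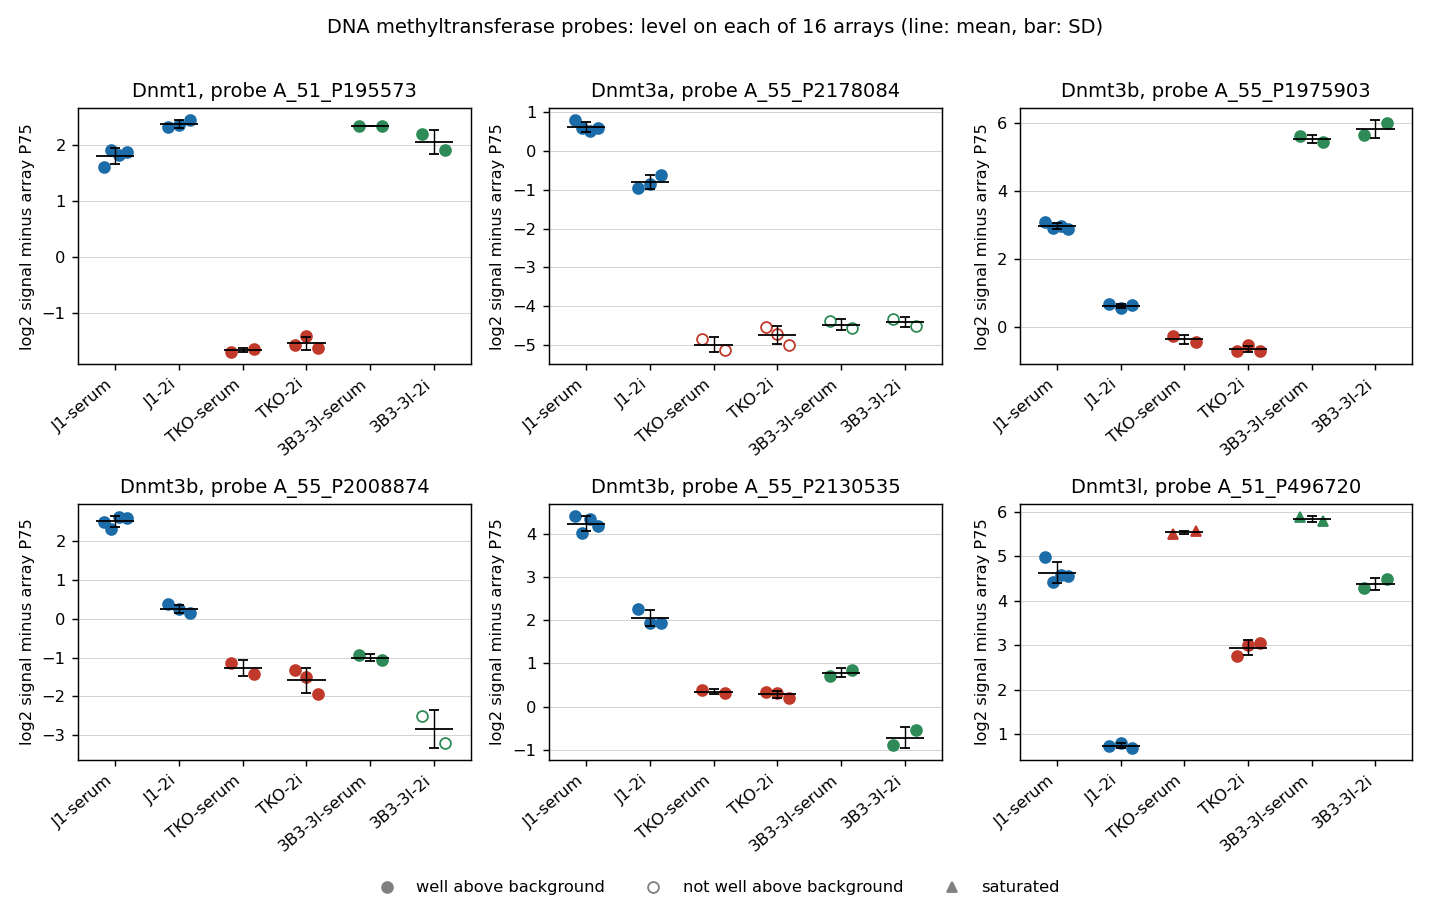
Level of each of the 6 probes on each of the 16 arrays, as log2 signal minus the 75th percentile (P75) of the array, by group; horizontal lines are group means and bars SD. Open circles are arrays on which the probe was not well above background and triangles those on which it was saturated: Dnmt3a is open in all TKO and 3B3-3l groups, and Dnmt3l is saturated in TKO-serum and 3B3-3l-serum.

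Dnmt1, the maintenance enzyme, was well above background on all 16 arrays and separated TKO from the other lines. Its level was 1.61, 1.91, 1.83 and 1.88 in the 4 J1-serum arrays and 2.32, 2.36 and 2.45 in the 3 J1-2i arrays. In TKO it was -1.70 and -1.65 in serum and -1.58, -1.42 and -1.64 in 2i. The 3B3-3l line, which is not a Dnmt1 knockout, gave 2.34 on both serum arrays and 2.21 and 1.91 in 2i. The 5 TKO arrays were all far below the other 11, and J1-serum did not overlap J1-2i.

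TKO was lower than J1 by 3.48 ± 0.12 (SE, log2) in serum and by 3.93 ± 0.11 in 2i, or 11.2-fold and 15.2-fold (limma adjusted p 1.96e-09 and 2.84e-10). The TKO signal of 341 to 429 intensity units was still well above background. Within J1, Dnmt1 was higher in 2i by 0.57 ± 0.10, a 1.49-fold difference with an adjusted p of 0.000454 by limma that stayed under the 2-fold minimum for a call. In TKO the 2i difference was 0.13 (95% interval -0.14 to 0.39) and in 3B3-3l it was -0.29 (-0.58 to 0.00), and neither passed the test. The difference between the responses of 3B3-3l and J1 was -0.86 (adjusted p 0.00208 by limma), also short of 2-fold. Without 3B3-3l-2i replicate 1 this difference was -1.01, past 2-fold. In the order of group means, J1-2i and 3B3-3l-serum were neighbours that overlapped, as were 3B3-3l-2i and J1-serum, and neither difference passed the test (adjusted p 0.832 and 0.0940). Dnmt1 was thus the only gene of the 4 without a called 2i response in any line.

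Dnmt3a, the first of the de novo enzymes, was measurable in J1 alone. The probe A_55_P2178084 read 0.81, 0.59, 0.52 and 0.59 in J1-serum and -0.95, -0.84 and -0.61 in J1-2i, and the groups did not overlap. The difference was -1.43 ± 0.13 (SE, log2), a 2.69-fold decrease (limma adjusted p 1.51e-06).

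On the 9 arrays of TKO and 3B3-3l, both lines with a Dnmt3a knockout, the probe was not well above background, with group means between -5.00 and -4.42. In serum, TKO cells had at least 10.8-fold less Dnmt3a signal than J1 cells, and in 2i, where J1 itself was lower, at least 3.34-fold less. For 3B3-3l the bounds were at least 7.37-fold lower in serum and at least 2.87-fold lower in 2i. Each bound sets the J1 mean against the dimmest signal still counted as well above background on the other group's arrays, and the adjusted p of the measured means was at most 1.63e-08 in all 4 comparisons. The probe passed the filter on dim probes through its J1 groups alone, where it is bright, so these p-values and the calls they give lend no support beyond the bounds. No 2i response can be given for Dnmt3a in TKO or 3B3-3l.

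Dnmt3b, the other de novo enzyme and the gene added back to 3B3-3l, had 3 probes under 1 RefSeq accession. In J1 the 3 probes fell in 2i by about the same factor. Probe A_55_P1975903 read 3.08, 2.91, 2.98 and 2.88 in serum and 0.68, 0.56 and 0.65 in 2i. Probe A_55_P2008874 read 2.50, 2.32, 2.62 and 2.61 in serum and 0.37, 0.24 and 0.15 in 2i. Probe A_55_P2130535 read 4.41, 4.02, 4.33 and 4.17 in serum and 2.26, 1.93 and 1.94 in 2i. No serum array overlapped a 2i array on any of the 3. The decreases were 2.34 ± 0.10, 2.26 ± 0.18 and 2.19 ± 0.12 (log2, SE), or 5.05-fold, 4.78-fold and 4.57-fold, with limma adjusted p of at most 3.35e-07. Differences between probes in this response lay between -0.14 and -0.07 and none passed the test of probe pairs.

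TKO cells gave a lower level than J1 cells on all 3 probes and no called 2i response. Probe A_55_P1975903 read -0.25 and -0.44 in TKO-serum and -0.69, -0.53 and -0.70 in TKO-2i. Probe A_55_P2008874 read -1.13 and -1.42 in serum and -1.31, -1.51 and -1.94 in 2i. Probe A_55_P2130535 read 0.39 and 0.30 in serum and 0.35, 0.31 and 0.19 in 2i. All 15 readings were well above background and below every J1 reading of the same probe, and serum and 2i overlapped for the last 2 probes but not for A_55_P1975903. Relative to J1 the probes were lower by 3.31, 3.78 and 3.89 in serum and by 1.27, 1.84 and 1.76 in 2i (log2, limma adjusted p at most 2.1e-05). The gap was narrower in 2i, where J1 had fallen. The 2i differences within TKO were -0.30 (95% interval -0.57 to -0.03), -0.31 (-0.77 to 0.15) and -0.06 (-0.39 to 0.26), with adjusted p between 0.0922 and 0.786 by limma. The TKO response differed from that of J1 by 2.04, 1.94 and 2.13, with adjusted p of at most 0.00023 by limma.

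In 3B3-3l the probes split. Probe A_55_P1975903 read 5.62 and 5.44 in serum and 5.64 and 6.01 in 2i, above every array of the other lines. Probe A_55_P2008874 read -0.94 and -1.06 in serum and -2.49 and -3.19 in 2i, where it was not well above background on either array. Probe A_55_P2130535 read 0.71 and 0.86 in serum and -0.89 and -0.55 in 2i. Thus 1 probe of the gene was at its highest in this line and the other 2 were below every J1 array.

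Against J1 in serum, A_55_P1975903 was higher by 2.57 ± 0.12 (log2, SE), 5.92-fold, whereas A_55_P2008874 and A_55_P2130535 were lower by 3.51 and 3.45. In 2i, A_55_P1975903 was higher by 5.19 ± 0.13, 36.6-fold, while A_55_P2008874 was at least 5.95-fold lower and A_55_P2130535 was lower by 2.76 (limma adjusted p at most 5.45e-07 in all 6 tests). The raw median signal of A_55_P1975903 in 3B3-3l was 42986 to 61542, of a highest possible 65535, so this probe was near the top of the scanner range without being saturated. Its 2i response in 3B3-3l was 0.29 (95% interval -0.01 to 0.59, limma adjusted p 0.155), and the responses of J1 and 3B3-3l differed by 2.63 ± 0.17 (adjusted p 3.83e-07 by limma). The other 2 probes fell in 2i in this line too: A_55_P2008874 at least 2.50-fold and A_55_P2130535 by 1.50 ± 0.16, 2.83-fold (limma adjusted p 6.61e-05 and 1.89e-05). The response of A_55_P2130535 in 3B3-3l differed from that in J1 by 0.69, under the 2-fold minimum, and from that in TKO by -1.44. For A_55_P2008874, whose fall in 3B3-3l is a bound, the size of these differences is not measured.

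The split was tested within arrays, as the log2 difference between 2 probes of the same gene, in which the scaling of the array cancels. Over 4710 pairs of probes from 3307 genes, 12.6% of pairs were called for 3B3-3l against J1 in serum, 9.49% for the same lines in 2i and 3.82% for the 2i response in 3B3-3l. A_55_P1975903 rose relative to A_55_P2008874 and A_55_P2130535 by 6.08 and 6.02 in serum when 3B3-3l was set against J1, and by 5.60 and 5.44 when it was set against TKO (6.9% of pairs called). In 2i it rose relative to A_55_P2130535 by 7.96 against J1 and by 7.47 against TKO (7.48% of pairs called). In the 2i response of 3B3-3l these probes differed by 1.79. The pair with A_55_P2008874 was called in the same comparisons, but since that probe was not well above background in 3B3-3l-2i, its difference is not an exact size in any of the 5 comparisons that use this group. The pair A_55_P2008874 and A_55_P2130535 was called in none of the 12 comparisons, with differences between -0.25 and 0.10 in the 7 that do not use 3B3-3l-2i. For TKO against J1, A_55_P1975903 minus A_55_P2130535 was 0.58 in serum and 0.49 in 2i, which passed the adjusted p (0.00571 and 0.0238 by limma) but not the fold minimum, and the other pairs did not pass. The 2i response of the pair A_55_P1975903 and A_55_P2130535 in 3B3-3l differed from that of J1 by 1.94 (10.6% of pairs called) and from that of TKO by 2.03 (4.19%). In the 5 comparisons without 3B3-3l none of the Dnmt3b pairs was called, while 11.7% of all pairs were for the J1 response, 7.2% for the TKO response, 8.84% and 3.48% for TKO against J1 in serum and 2i, and 6.48% for the difference of the TKO and J1 responses. In all, 14 of 36 pair tests were called, all with A_55_P1975903 and all in comparisons with 3B3-3l. The 2 pairs with A_55_P1975903 share that probe and are not independent.

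**Figure D2:**
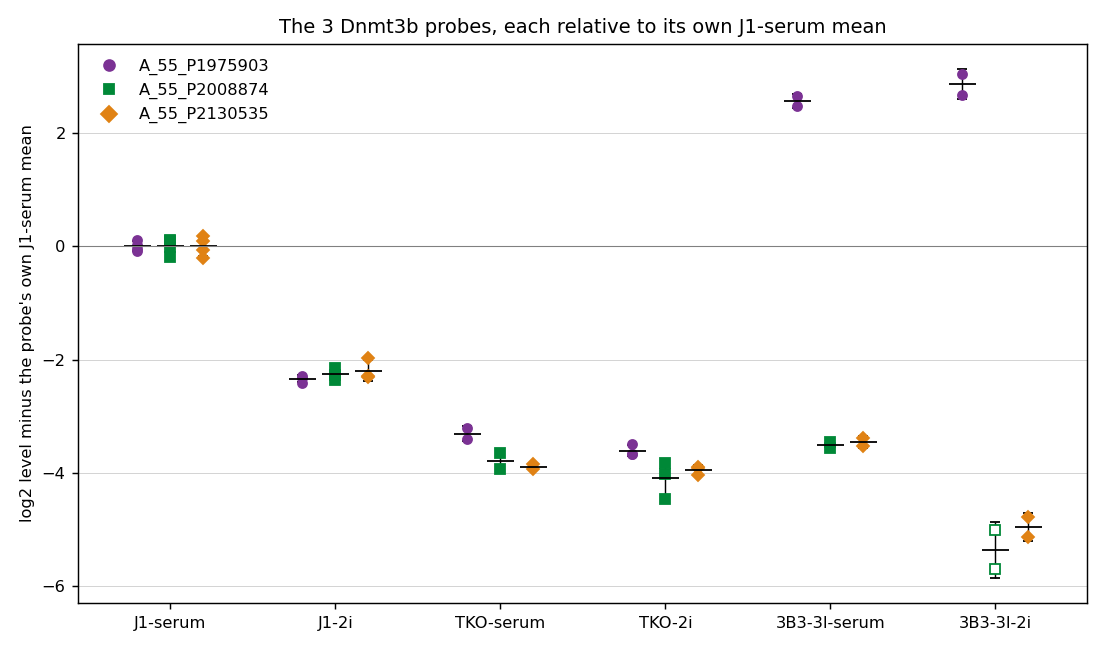
The 3 Dnmt3b probes on each array, as log2 level minus the probe's own mean in J1-serum; horizontal lines are group means, bars SD and open symbols arrays not well above background. The probes fall together in J1-2i and TKO, whereas in 3B3-3l A_55_P1975903 lies above 0 and the other 2 lie more than 3 below it.

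Dnmt3l, the cofactor, is not among the genes that TKO lacks and was added to 3B3-3l, and its probe A_51_P496720 was the one called lower in 2i in all 3 lines. It read 4.98, 4.43, 4.58 and 4.55 in J1-serum and 0.73, 0.80 and 0.69 in J1-2i. In TKO it read 5.51 and 5.57 in serum, both saturated, and 2.75, 3.02 and 3.06 in 2i. In 3B3-3l it read 5.89 and 5.80 in serum, both saturated, and 4.29 and 4.48 in 2i. Serum and 2i did not overlap in any line, and the 2i arrays stood in the order J1, TKO, 3B3-3l without overlap.

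The decrease in J1 was 3.90 ± 0.13 (log2, SE), 14.9-fold, the largest of the 6 probes' responses in J1 (limma adjusted p 1.51e-10). Saturation turns the other 2 responses into lower bounds: the fall of Dnmt3l was at least 6.07-fold for TKO cells, and for 3B3-3l cells at least 2.76-fold (limma adjusted p 5.74e-08 and 2.74e-05). In 2i, where nothing was saturated, Dnmt3l was higher than in J1 by 2.20 ± 0.14 in TKO and by 3.65 ± 0.15 in 3B3-3l, and higher in 3B3-3l than in TKO by 1.44 ± 0.15 (adjusted p 3.01e-07, 1.05e-08 and 2.06e-05 by limma). With slide in the model the last of these was 0.98, under the fold minimum. Against J1-serum, TKO-serum was at least 1.87-fold higher and 3B3-3l-serum at least 2.32-fold higher. The first was not called (0.91, or 1.02 and called without J1-serum replicate 1), and the second fell under the fold minimum with slide in the model (0.87), with quantile normalization (0.92) and in the deposited table (0.89). J1-serum replicate 1 had the highest J1 reading of this probe and was the only J1 array on the slide of 3B3-3l.

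**Figure D3:**
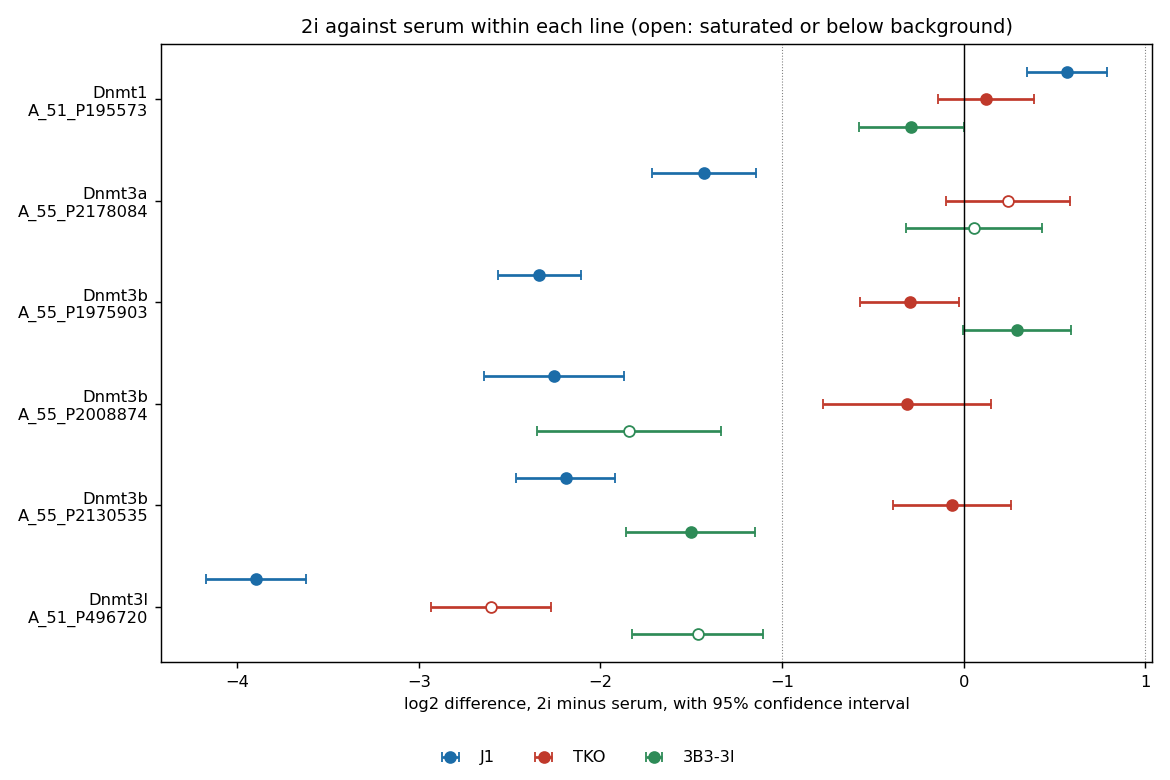
The 2i response of each probe in each line, as the log2 difference of 2i minus serum with its 95% confidence interval from limma; dotted lines mark the 2-fold minimum and open circles responses in which a group was saturated or not well above background. In J1 all probes but Dnmt1 lie left of -1; in TKO only Dnmt3l does; in 3B3-3l 2 Dnmt3b probes and Dnmt3l do.

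Taking the 6 probes as a set, 5 were called lower in 2i in J1, where 11.2% of 27082 tested probes were called lower and 21% in either direction. In TKO 1 was called lower, against 7.94% of all probes (13.7% in either direction), and in 3B3-3l 3 were, against 6.11% (11%). None was called higher in any line. Here and below the counts are of probes, and the 3 of Dnmt3b read 1 gene and are not independent. The genes called lower were Dnmt3a, Dnmt3b and Dnmt3l in J1, Dnmt3l in TKO, and Dnmt3b and Dnmt3l in 3B3-3l. Within slides the J1 response of the 5 probes kept its size: on the slide with 2 arrays of each medium it was -1.34 for Dnmt3a, between -2.35 and -2.15 for Dnmt3b and -3.85 for Dnmt3l, and on the slide with 1 of each it was -1.43, between -2.36 and -2.08, and -3.63. Without J1-serum replicate 1, or any other single array, the counts of 5, 1 and 3 were the same.

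The test of the difference between the responses of 2 lines was called for several probes. For TKO minus J1 these were 5 of 6 (14% of all probes), for 3B3-3l minus J1 3 (15.3%) and for 3B3-3l minus TKO 3 (8.64%). With another background correction (normexp) the last count was 1. The Dnmt3a values among the calls rest on groups not well above background and those of Dnmt3l on saturated serum arrays. Only the Dnmt3b differences are between measured signals in both lines, and for A_55_P2008874 in 3B3-3l the response is a bound. TKO and 3B3-3l are both Dnmt3b knockouts, so their responses are of remaining or exogenous signal, whose source was not tested.

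Between lines, 5 probes differed between TKO and J1 in serum, all lower (background 15.4% in either direction, 7.36% lower), and all 6 in 2i, with Dnmt3l higher and the rest lower (7.68%). Between 3B3-3l and J1, 5 probes differed in serum (17.6%) and 5 in 2i (15.3%), 2 higher and 3 lower in each medium. Each of these 4 counts includes Dnmt3a, which was bright in J1 alone. Dnmt1 was the exception in both, at 0.54 ± 0.12 in serum (adjusted p 0.00205 by limma, 1.45-fold) and -0.32 ± 0.12 in 2i (adjusted p 0.0522). These comparisons share the J1 arrays and are not independent of each other. The probes lower in TKO are of the genes that the line lacks. In 3B3-3l the probes called are of genes knocked out or added. Genes altered on purpose were thus counted, so the shares over all probes are not a like background for these counts.

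**Figure D4:**
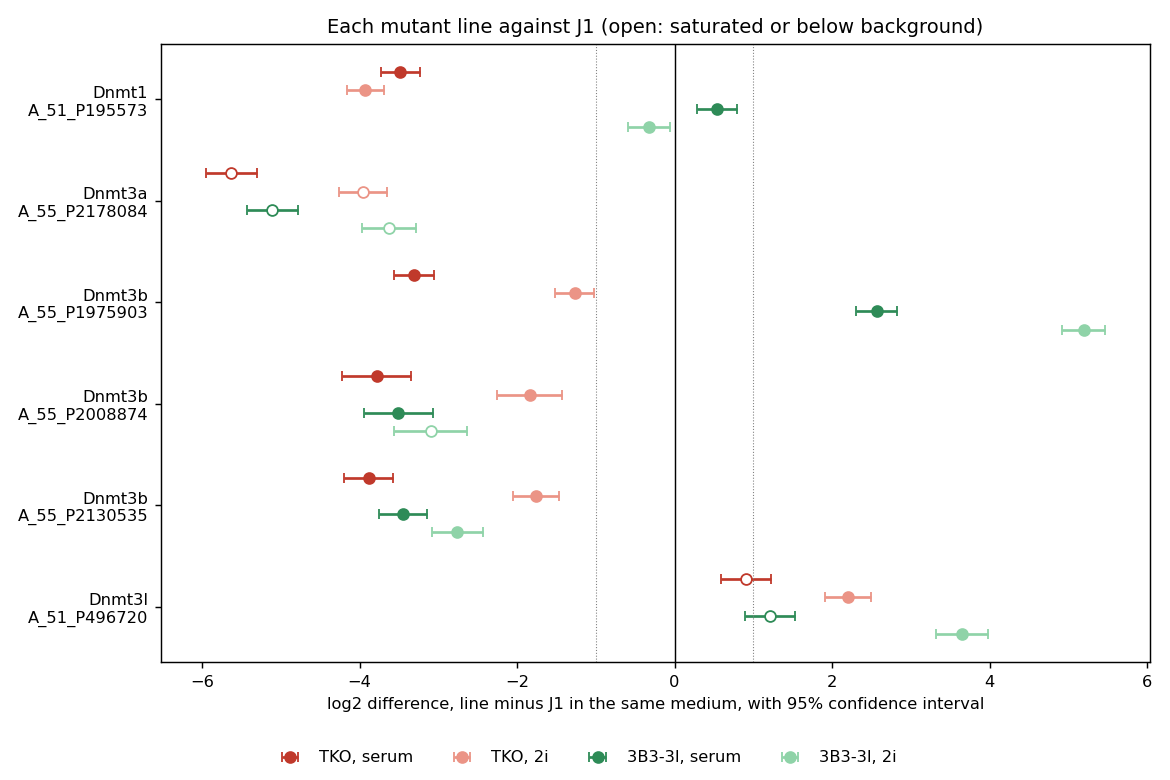
Difference of each mutant line from J1 in the same medium, in log2 with its 95% confidence interval from limma; dotted lines mark the 2-fold minimum and open circles comparisons in which a group was saturated or not well above background. Dnmt1 lies far to the left in TKO only, Dnmt3a in both lines, and the 3 Dnmt3b probes lie on opposite sides in 3B3-3l.

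Between 3B3-3l and TKO, 2 probes differed in serum (background 10.7%) and 5 in 2i (10.4%). The count in 2i was 3 with normexp and 3 with slide in the model. The probes called were again of genes removed from TKO or added to 3B3-3l. Dnmt1 was higher in 3B3-3l by 4.02 ± 0.13 in serum and 3.61 ± 0.12 in 2i, and A_55_P1975903 of Dnmt3b by 5.87 ± 0.14 and 6.46 ± 0.13 (limma adjusted p at most 1.42e-09). For the remaining Dnmt3b probes the serum difference did not pass the test, at 0.27 (95% interval -0.23 to 0.78) and 0.44 (0.08 to 0.79). In 2i both were lower in 3B3-3l than in TKO: A_55_P2008874 at least 1.66-fold and A_55_P2130535 by 1.00 ± 0.15 (adjusted p 0.000859 and 0.000337 by limma). The second lay at the fold minimum and was under it in 7 of 25 alternatives. The first was not called in 3, among them the fit with slide (-1.24, not past the adjusted p threshold) and the data without 3B3-3l-2i replicate 2 (-0.91). Leaving out 3B3-3l-2i replicate 1 took the second to -0.83.

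Other genes that act on DNA methylation were read from a list of 25, all of them tested, with 1 probe per gene. In the 2i response, 4 rose and 3 fell in J1, 3 rose and 2 fell in TKO, and 4 rose and 2 fell in 3B3-3l. Of all probes, 21%, 13.7% and 11% were called in these comparisons. These shares, here and below, are over all tested probes. The list has 1 probe per gene, its brightest, so the shares are not matched to it. The list medians were 0.17, -0.11 and 0.00 (log2), beside 0.05, 0.07 and 0.00 over all 13917 genes. Prdm14, a transcriptional regulator known to repress Dnmt3b and Dnmt3l in mESCs, rose in all 3 lines, by 2.79 ± 0.10 in J1, 1.57 ± 0.12 in TKO and 1.25 ± 0.13 in 3B3-3l (SE, limma adjusted p at most 1.16e-05). Prdm14 was lower in J1-serum (0.00 to 0.17) than in TKO-serum (1.00 and 1.19) or 3B3-3l-serum (1.16 and 1.43), and 2i brought all 3 lines to between 2.48 and 2.95.

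Tet2, an oxidase of methylated cytosine, rose by 1.51 ± 0.13 in J1 (limma adjusted p 8.81e-07) and by 1.03 in 3B3-3l, and its difference in TKO was 0.28 (adjusted p 0.214 by limma). Uhrf1, which brings Dnmt1 to replicated DNA, rose by 1.09 ± 0.12 in TKO (limma adjusted p 1.46e-05) and by 1.18 in J1, and in 3B3-3l it was higher by 0.63, short of 2-fold (adjusted p 0.00310 by limma). Gadd45a, a stress-response gene linked to demethylation, fell by 1.61, 1.26 and 2.21 in J1, TKO and 3B3-3l. Mbd1, a reader of methylated DNA, fell by 1.15 in J1 and 1.37 in TKO and rose by 1.83 in 3B3-3l. Dppa3, known to protect the maternal genome from demethylation in the early embryo, fell at least 21.1-fold in 3B3-3l, from 1.72 and 2.43 in serum to 2 arrays not well above background in 2i (limma adjusted p 1.45e-09).

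On the same list, TKO against J1 gave 3 higher genes in serum (15.4% of all probes called in either direction). In 2i it gave 0 called by limma (7.68%). There 8 had an unadjusted limma p under 0.05 and 5 of them an adjusted p under it as well, with differences short of 2-fold. Without a fold minimum, 6325 of the 27061 tested probes passed the adjusted p in that comparison. For 3B3-3l against J1 there were 7 higher and 1 lower in serum (17.6%) and 3 higher and 1 lower in 2i (15.3%). Against TKO, 3B3-3l gave 1 higher gene in serum (10.7%) and 3 higher and 1 lower in 2i (10.4%). Summed trophoblast markers (4 measured of Cdx2, Eomes, Elf5, Krt8 and Tfap2c) were 43.5 to 46.1 in 3B3-3l-serum and 7.34 to 12.2 in all other groups. The part of such cells in the 3B3-3l values was not tested.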

How the data were processed

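Total RNA of 16 mESC cultures, labelled with Cy3, was measured on 16 arrays of 62976 spots (59305 non-control spots, 55681 probes). Per the labels and file headers, images were read with Agilent Feature Extraction (version 11.5.1.1), and the deposited processed signal is a background-subtracted, spatially detrended fluorescence intensity with no scaling between arrays. The authors also deposited a table of normalized log2 values for 30170 probes, used here as an alternative only. In it 13 of 16 columns matched another replicate of their labelled group better than the one named, and all 16 matched their group.

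Here the intensity was taken to log2 and the array's 75th percentile subtracted. Spots with an outlier mark were left out, saturated ones kept. Probes were named by RefSeq accession (28026 probes of 21154 genes, GRCm38.p6). Of 27126 probes tested, 888 lacked a value on some array. Limma (version 3.58.1, R 4.3.3) fitted 6 group means and 12 two-sided contrasts, with Benjamini-Hochberg adjustment over all probes tested. Calls needed a fold of at least 2 and an adjusted p no higher than 0.05. Differences between 2 probes of a gene were fitted in the same way over 4710 pairs. On data simulated for the J1 response (26238 probes), 94% of changes of 1.5 and all 100 changes of 3 (log2) were called, with 8 false calls. For pairs (4614) the shares were 94% and 99%.

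A group dim or saturated on all its arrays gives only a bound, computed from mean log2 values. Saturation and the number of arrays limit the precision. Alternatives were normexp (offset 50), for which the median signal stood in for the planned mean signal, quantile and median scaling, the deposited table, 2 other filters on dim probes, no fold minimum, slide and replicate number as blocks, each array left out, and diffSplice (each probe against the gene's others). The named genes were all member probes, and of a list of 25 methylation genes the 2 largest calls in each direction of each 2i response, each read by its brightest tested probe; the 3 genes most like each member were those with the highest correlation over arrays. Members and lists were chosen with earlier results of these data known. The replicate numbers did not pair the samples.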

Additional observations from a re-analysis of the deposited data

Results flagged for a closer look

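The interaction term of the limma model, which compares the 2i response (log2 difference of 2i minus serum) between 2 lines, passed the adjusted p and the 2-fold minimum for 11 combinations of probe and lines. Over all probes it was called for 14% for TKO minus J1, 15.3% for 3B3-3l minus J1 and 8.64% for 3B3-3l minus TKO. In 5 of the 11, all of Dnmt3b, the probe was within range in all groups compared. The other 6 include a group that was saturated or not well above background, and for the 2 of Dnmt3a and 3 of Dnmt3l among them no difference between responses is established. The signal of the Dnmt3b probes fell less in TKO than in J1, by 2.04 (A_55_P1975903), 1.94 (A_55_P2008874) and 2.13 (A_55_P2130535). This sets a TKO line with small, uncalled 2i differences against falls of over 2 in J1. TKO lacks functional Dnmt3b, and the source of its remaining probe signal was not tested. The same contrast gave 1.67 for Dnmt3a and 1.30 for Dnmt3l. The Dnmt3a value sets a measured fall in J1 against TKO groups that were not well above background. The Dnmt3l value is at most this large, since TKO-serum was saturated and its fall is a lower bound.

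Between 3B3-3l and J1 the difference was 2.63 for Dnmt3b A_55_P1975903, for which the 3B3-3l response was 0.29 and that of J1 -2.34. It was 1.49 for Dnmt3a, again with 3B3-3l not well above background, and 2.43 for Dnmt3l, an upper limit because 3B3-3l-serum was saturated. Between 3B3-3l and TKO it was -1.53 for A_55_P2008874 and -1.44 for A_55_P2130535, the Dnmt3b probes that fell in 2i in 3B3-3l and not in TKO. The first of these is not an exact size, because the probe was not well above background in 3B3-3l-2i, and it was -0.94 and not called with normexp. For Dnmt3l it was 1.14, with both serum groups saturated, so that its size is not measured. With normexp the Dnmt3l value was 0.999 and not called.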

How the results depend on the processing

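In no alternative did a called difference of a methyltransferase probe change sign. Of the values for single probes and probe pairs, 16 lost their call in an alternative, 8 gained one and 2472 kept their side of the threshold, counting as kept those called in neither. The counts of called probes moved by more than 1.5 times as follows. The filter on all 16 arrays, which removes Dnmt3a and Dnmt3b A_55_P2008874 by construction, left 3 in place of 5 for the J1 response, for TKO against J1 in serum, for 3B3-3l against J1 in serum and in 2i, and for the difference of the TKO and J1 responses. For 3B3-3l against TKO in 2i, normexp and the slide block each gave 3 in place of 5. For the difference of the 3B3-3l and TKO responses normexp gave 1 in place of 3. Without a fold minimum the difference of the 3B3-3l and J1 responses had 5 in place of 3. The cause of the normexp and slide differences was not tested.

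Leaving out each array in turn gave 5 to 6 called probes for TKO against J1 in serum, 4 to 5 for 3B3-3l against TKO in 2i, 3 to 4 for the difference of the 3B3-3l and J1 responses and the same count in the other 9 comparisons. Calls of probe pairs stayed at 14 of 36 whichever array was left out. The diffSplice test, which sets each Dnmt3b probe against the gene's other probes and so runs other tests, called 18 of its 36. No share of diffSplice calls over all probes stands beside that count, so it is not read as a result. Array median scaling moved the median of all probes by 0.16 in the J1 response and 0.13 in the 3B3-3l response, and quantile normalization by -0.11 in 3B3-3l against J1 in serum. Replicate numbers did not pair the samples: deviations of 33 same-numbered pairs of arrays correlated at -0.27 to 0.29, and 5 of 16 arrays correlated best with their own number. With replicate number as a block (replicate block) the J1 response had 5 called probes, as without it, and no call of a methyltransferase probe changed. Dim and saturated groups limit Dnmt3a and Dnmt3l most, because no 2i response can be read below background and serum levels above the scanner range have no upper value.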

Other observations

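The genes whose levels followed each methyltransferase gene, read by its brightest probe, most closely over the 16 arrays were sought among 5699 genes, as a description without a test, since the arrays share group and slide. The Dnmt3a probe was not well above background on 9 of these arrays and the Dnmt3l probe was saturated on 4, so the order of the genes given for these 2 is not exact. For Dnmt1 they were Plin2 (Pearson r 0.934), Pctp (0.916) and Tgfbi (0.914). For Dnmt3a they were Dhrs7 (0.970), Tram2 (0.969) and Slc44a3 (0.959). For Dnmt3b, read by A_55_P1975903, they were Adcy6 (0.934), Lama3 (0.924) and Mapkapk2 (0.913). For Dnmt3l they were Timm21 (0.988), Dusp9 (0.982), a phosphatase of the MAP kinases, and Eprn (0.975).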
